A study of Mus musculus with 6 samples.

Results

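Complex I of the respiratory chain was followed through its nuclear transcripts, taken as all genes of the count table whose symbol starts with Nduf and whose mean count over the libraries was at least 10. There were 48 such genes among the 13118 genes tested: 37 subunits of complex I, the 8 assembly factors Ndufaf1 to Ndufaf8, the complex IV subunit Ndufa4 with its paralog Ndufa4l2, and Ndufb4c, a near-copy of Ndufb4. All 48 passed the filter on low counts. The lowest mean count was that of Ndufaf2, at 109. Just below the limit lay Ndufs6b, with a mean count of 4.00, followed by Ndufab1-ps (1.01) and Ndufb4b (0.917), and the 2 rows Ndufs5-ps and Ndufa11b carried no values. The rows of the 7 mitochondrially encoded Nd genes carried no values either, so these genes were not analysed here.

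The tissue was the gastrocnemius, a hindlimb muscle rich in fast fibres, of male mice aged 8 weeks, with 1 library for each of 3 mice per genotype. All mice carried loxP-flanked Thra (Thra fl/fl), which encodes thyroid hormone receptor alpha. The group TRa_mKO also carried the Myf5-Cre transgene, active in the myogenic lineage from the embryo on, and the WT littermates carried no Cre. Cells of the muscle outside that lineage were not targeted by design, and polyadenylated RNA of the whole tissue was sequenced, so that fewer cells of a type and less RNA per cell cannot be told apart. Library totals lay between 12390527 and 14488500 counts. Fast-fibre transcripts summed to between 92663 and 123715 CPM (counts scaled to a common library size with TMM composition factors) in every library, as the tissue label has it. Thra stood at 78.8, 92.8 and 96.8 CPM in the 3 WT libraries against 129, 118 and 101 CPM in the TRa_mKO ones, with all TRa_mKO libraries above the WT ones (adjusted p = 0.117). A gene-level count also takes reads of exons that the deletion leaves, and Thra shares reads with another feature, so it checks neither the deletion nor the labels. Values are listed in the order of replicates 1, 2 and 3 throughout.

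Complex I is the largest enzyme of the respiratory chain. It takes electrons from NADH in the matrix arm, passes them along flavin and iron-sulfur clusters to ubiquinone, and pumps protons through its membrane arm. Core subunits carry the catalysis, accessory subunits surround and stabilise them, and assembly factors build the modules and then leave. Oxidative fibres hold more mitochondria than fast glycolytic ones, and thyroid hormone is a known regulator of mitochondrial content in muscle.

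The nuclear transcripts of complex I did not differ between the genotypes beyond the spread of the libraries. Of the 48 genes, 0 had an adjusted p below 0.05 (edgeR quasi-likelihood test, Benjamini-Hochberg over all genes tested), against 4.17% of all genes. In each direction it was 0 of 48, against 2.52% of all genes higher and 1.65% lower in TRa_mKO. At an unadjusted p under 0.05 stood 1 of the 48 (Ndufaf4, lower), against 17.9% of all genes in either direction and 7.72% lower. DESeq2 called 0 (5.45% of its genes) and limma-voom 0 (3.87%). The libraries of both genotypes overlapped for each of the 48 genes, whereas 23.2% of all genes had WT and TRa_mKO apart. These overlaps are not 48 separate results, since WT replicate 3 was the lowest library for 40 of the genes. The median log2 fold change, TRa_mKO over WT, was -0.06 over the 48 genes and -0.0003 over all genes tested, and 34 of the 48 (70.8%) lay below 0, against 50.0% of all genes.

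The data also bound how large a difference could have been missed. The 95% confidence interval of the fold change stayed within 1.5-fold either way for 47 of the 48 genes, against 66.1% of all genes, Ndufaf4 being the exception. Within 2-fold stayed all 48, against 87.6% of all genes. Over those 47 genes the interval bounds reached from -0.55 to 0.50 on the log2 scale. Counting error was at most 9.59% (Ndufaf2, mean count 109) and stayed below the common biological coefficient of variation of 11.8% that edgeR estimated. A p that misses the threshold does not show equality, and differences inside these intervals remain compatible with the data.

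**Figure D1:**
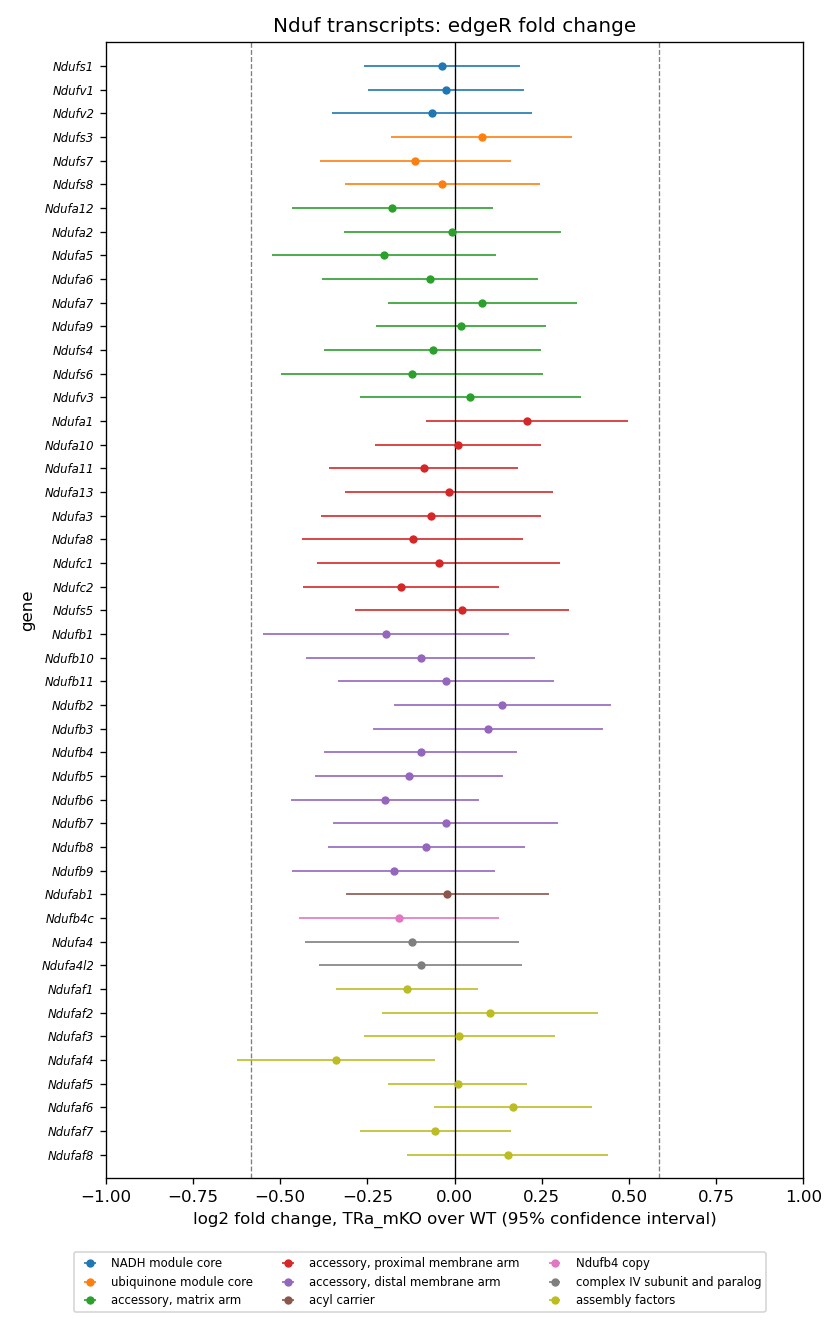
Log2 fold change (TRa_mKO over WT) of the Nduf genes reported here on the horizontal axis, 1 gene per row, ordered and coloured by role; points are edgeR estimates, bars are 95% confidence intervals, and dashed lines mark 1.5-fold either way. Every interval but that of Ndufaf4 crosses 0, and that of Ndufaf4 runs from -0.62 to -0.06.

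The catalytic core of the NADH module came first. Ndufv1, which binds the flavin that accepts electrons from NADH, measured 413, 383 and 349 CPM in the 3 WT libraries against 374, 380.2 and 372 CPM in the TRa_mKO ones. Ndufv2, an iron-sulfur subunit beside it, measured 459, 455 and 340.3 CPM in the 3 WT libraries against 415, 382 and 401 CPM in the TRa_mKO ones, with WT replicate 3 the lowest library. Ndufs1, the large subunit that carries most clusters of the module, measured 399, 383 and 363 CPM in the 3 WT libraries against 401, 354 and 363 CPM in the TRa_mKO ones. In all 3 genes WT and TRa_mKO overlapped, and for Ndufs1 the highest and the lowest library were both TRa_mKO ones. Their log2 fold changes were -0.02, -0.07 and -0.04 in that order, with adjusted p of 0.938, 0.852 and 0.901.

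The ubiquinone module, where the electrons leave the complex, showed more spread in WT. Ndufs7, which lines the ubiquinone pocket, measured 295, 275 and 214 CPM in the 3 WT libraries against 243, 242 and 239.6 CPM in the TRa_mKO ones, so that its TRa_mKO libraries were nearly alike and lay between WT replicates 2 and 3. Ndufs3, a core subunit without a cluster, measured 304, 306 and 237 CPM in the 3 WT libraries against 301, 301 and 291 CPM in the TRa_mKO ones. Ndufs8, which holds iron-sulfur clusters near the pocket, measured 162, 148 and 116 CPM in the 3 WT libraries against 135, 132 and 148 CPM in the TRa_mKO ones. In Ndufs3, Ndufs7 and Ndufs8 the lowest library was WT replicate 3. Their log2 fold changes were 0.08, -0.11 and -0.04 in that order, with adjusted p of 0.792, 0.697 and 0.928.

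Accessory subunits of the matrix arm numbered 9, with 6 log2 fold changes below 0, a median of -0.06 and a range from -0.20 (Ndufa5) to 0.08 (Ndufa7). Ndufa5 measured 216, 203 and 142 CPM in the 3 WT libraries against 159, 162 and 167 CPM in the TRa_mKO ones. Its TRa_mKO libraries lay close together, below WT replicates 1 and 2 and above WT replicate 3 (log2 fold change -0.20, SE 0.14, 95% interval -0.52 to 0.12, adjusted p = 0.512). Ndufs6, a zinc-binding subunit placed late in assembly, had the largest WT coefficient of variation of the 9 (24.4%), at 135, 136 and 85.0 CPM in the 3 WT libraries against 104, 106 and 115 CPM in the TRa_mKO ones. Ndufs4, whose loss in mice causes a Leigh-like encephalopathy, measured 287, 261 and 193 CPM in the 3 WT libraries against 249, 232 and 229 CPM in the TRa_mKO ones (adjusted p = 0.872). Ndufa12, whose paralog Ndufaf2 holds its place during assembly, had a mean of 223 ± 39.0 CPM in WT against 197 ± 7.21 CPM in TRa_mKO (SD, n = 3). Ndufa9, near the junction of the arms, had 336 ± 39.6 CPM in WT against 341 ± 5.93 CPM in TRa_mKO (SD, n = 3). In all 9 genes WT replicate 3 was the lowest library.

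Accessory subunits of the proximal membrane arm also numbered 9, of which 6 lay below 0, with a median of -0.05 and a range from -0.15 (Ndufc2) to 0.21 (Ndufa1). Ndufa1, a small X-linked membrane anchor and the shortest transcript among members with a length, had the most positive log2 fold change of the 48. It measured 127, 119 and 90.8 CPM in the 3 WT libraries against 127, 119 and 142 CPM in the TRa_mKO ones. WT replicate 3 was the lowest library, and TRa_mKO replicate 2 lay level with WT replicate 2 and below WT replicate 1 (log2 fold change 0.21, SE 0.13, 95% interval -0.08 to 0.50, adjusted p = 0.446). Ndufc2, at the opposite end, had a mean of 179 ± 28.9 CPM in WT against 161 ± 11.1 CPM in TRa_mKO (SD, n = 3). Ndufa10 had 261 ± 29.4 CPM in WT against 263 ± 7.20 CPM in TRa_mKO (SD, n = 3). WT replicate 3 was again the lowest library for all 9 genes.

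The distal membrane arm, built around the B subunits, counted 11 genes, 9 of them below 0, with a median of -0.10 and a range of -0.20 to 0.14. Ndufb6 measured 163, 157 and 119.8 CPM in the 3 WT libraries against 122, 131 and 131 CPM in the TRa_mKO ones, where WT replicate 3 lay below the TRa_mKO libraries and the other WT libraries above them (log2 fold change -0.20, SE 0.12, 95% interval -0.47 to 0.07, adjusted p = 0.433). Ndufb2 lay at the other end, at 156, 161 and 110.0 CPM in the 3 WT libraries against 148, 155 and 166 CPM in the TRa_mKO ones (log2 fold change 0.14, adjusted p = 0.672). Its sign rested on WT replicate 3, since without that library the log2 fold change was -0.0189. Ndufb1 stood at 114, 119 and 74.9 CPM in the 3 WT libraries against 88.1, 90.0 and 90.8 CPM in the TRa_mKO ones. Ndufb9 stood at 520.1, 490.2 and 375 CPM in the 3 WT libraries against 413, 391 and 424 CPM in the TRa_mKO ones. Ndufb3 stood at 168, 139 and 106 CPM in the 3 WT libraries against 142, 149 and 149.7 CPM in the TRa_mKO ones. In Ndufb1 and Ndufb9 the TRa_mKO libraries lay between WT replicates 2 and 3, and in Ndufb3 above WT replicates 2 and 3. WT replicate 3 was the lowest library for all 11 genes of the distal arm. Ndufab1, the mitochondrial acyl carrier protein that anchors subunits in both arms, had a log2 fold change of -0.02 (adjusted p = 0.958). Ndufab1, Ndufb4, Ndufb4c and Ndufb11 had fractional counts. These may come from reads shared with other features, and the values are uncertain to that extent.

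Ndufa4 and Ndufa4l2 bear the Nduf name although the former is a subunit of complex IV. Ndufa4 measured 638, 621 and 454 CPM in the 3 WT libraries against 507, 515 and 552 CPM in the TRa_mKO ones and had the highest level per transcript length of the 46 members with a length, 898 CPM per kilobase of its longest transcript. Among complex I subunits Ndufb9 led on this scale, at 619 CPM per kilobase. Ndufa4l2, a hypoxia-inducible paralog also expressed by pericytes, measured 23.7, 18.7 and 19.5 CPM in the 3 WT libraries against 16.6, 19.4 and 21.7 CPM in the TRa_mKO ones. It followed another order of libraries than the subunits, with WT replicate 1 highest and TRa_mKO replicate 1 lowest. The log2 fold changes of Ndufa4 and Ndufa4l2 were -0.12 and -0.10 (adjusted p = 0.712 and 0.764). The 8 listed pericyte and smooth muscle genes summed to 2082 to 2161 CPM in WT and 1808 to 2043 CPM in TRa_mKO, again lowest in TRa_mKO replicate 1. Of these 8 genes, 6 had a log2 fold change below 0 and 2 were called lower, against 1.65% of all genes. Their part in the Ndufa4l2 values was not tested.

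Assembly factors were low in level per transcript length, between 7.44 (Ndufaf7) and 38.1 (Ndufaf1) CPM per kilobase. Of the complex I subunits with a length, Ndufb2 alone lay in that range, at 34.2 CPM per kilobase of a longest annotated transcript of 4.37 kilobases, and the next, Ndufab1, lay at 62.7. Of the 8 factors, 3 had a log2 fold change below 0, and their median was 0.01. Ndufaf4, which works with Ndufaf3 on the ubiquinone module, gave the smallest p of all 48 genes. It measured 93.9, 89.1 and 81.9 CPM in the 3 WT libraries against 84.2, 59.4 and 65.4 CPM in the TRa_mKO ones. TRa_mKO replicates 2 and 3 lay below all WT libraries, while TRa_mKO replicate 1 lay above WT replicate 3 (log2 fold change -0.34, SE 0.13, 95% interval -0.62 to -0.06, adjusted p = 0.188). Without TRa_mKO replicate 1, Ndufaf4 was called lower (log2 fold change -0.50, adjusted p = 0.0239), 1 of 48 genes against 1.99% of all genes in that fit. In every other fit without 1 library it was not called. Its log2 fold change there ran from -0.39 (without WT replicate 3) to -0.25 (without TRa_mKO replicate 2). Ndufaf3 measured 17.6, 14.9 and 13.3 CPM in the 3 WT libraries against 14.7, 16.0 and 15.5 CPM in the TRa_mKO ones, with no like difference (adjusted p = 0.973).

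Ndufaf1, part of the membrane-arm assembly complex, measured 61.0, 62.4 and 53.4 CPM in the 3 WT libraries against 57.3, 50.7 and 52.9 CPM in the TRa_mKO ones (log2 fold change -0.14, adjusted p = 0.483). Ndufaf6, an early assembly factor, measured 24.6, 22.2 and 20.4 CPM in the 3 WT libraries against 26.9, 23.6 and 25.0 CPM in the TRa_mKO ones and leaned the other way (log2 fold change 0.17, adjusted p = 0.429). For Ndufaf6 the TRa_mKO replicates 1 and 3 topped all WT libraries and replicate 2 did not. Ndufaf5, which hydroxylates an arginine of Ndufs7, measured 32.8, 34.4 and 30.8 CPM in the 3 WT libraries against 35.4, 30.7 and 32.4 CPM in the TRa_mKO ones. Its partner Ndufaf8 measured 16.4, 13.2 and 12.9 CPM in the 3 WT libraries against 16.8, 14.0 and 16.3 CPM in the TRa_mKO ones (log2 fold changes 0.0095 and 0.15, adjusted p = 0.974 and 0.591). Neither gene of the pair had its genotypes apart. Ndufaf7, a mitochondrial arginine methyltransferase, measured 22.2, 20.0 and 19.3 CPM in the 3 WT libraries against 20.0, 20.6 and 18.7 CPM in the TRa_mKO ones (adjusted p = 0.831). Ndufaf2, a paralog of Ndufa12 that acts late in assembly, measured 7.11, 8.60 and 7.39 CPM in the 3 WT libraries against 8.86, 8.23 and 7.68 CPM in the TRa_mKO ones, on the fewest counts of the 48 genes (adjusted p = 0.77). In each of these factors the genotypes overlapped.

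Of 15 further genes of complex I assembly, 14 were tested and 0 passed in either direction, with a median log2 fold change of 0.02. At an unadjusted p under 0.05 stood 1 of the 14, against 17.9% of all genes, and 23.2% of all genes had WT and TRa_mKO apart. The 1 gene was Foxred1, an oxidoreductase needed for assembly. Foxred1 measured 37.7, 36.8 and 38.3 CPM in the 3 WT libraries against 46.4, 46.1 and 39.4 CPM in the TRa_mKO ones, with all TRa_mKO libraries above the WT ones (log2 fold change 0.22, SE 0.09, 95% interval 0.03 to 0.42, adjusted p = 0.21). Dmac2 came next, at 46.8, 41.0 and 38.2 CPM in the 3 WT libraries against 46.6, 48.2 and 46.8 CPM in the TRa_mKO ones (adjusted p = 0.372).

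What the members shared was a shift by library, within which the genotypes overlapped. The shift of a library is the median over the 48 genes of log2 CPM minus the mean of the 6 libraries for that gene. It was 0.21, 0.13 and -0.26 in WT replicates 1, 2 and 3. In TRa_mKO it was -0.0022, -0.07 and -0.0009, a spread inside that of WT. All genes tested had medians between -0.0008 and 0.0093, which the TMM scaling holds near 0. WT replicate 3 was the lowest of the 6 libraries for 40 of the 48 genes, against 16.9% of all genes. Among the others were Ndufs1, Ndufa4l2 and the factors Ndufaf1, Ndufaf2, Ndufaf4, Ndufaf5 and Ndufaf7. Among the WT libraries alone replicate 3 was lowest for 46 of the 48, against 33.4% of all genes, Ndufa4l2 and Ndufaf2 being the exceptions. WT replicate 1 was the highest of the 6 for 32 of the 48, against 15.6% of all genes. In CPM summed over the 48 genes, WT held 11064, 10598 and 8173 and TRa_mKO 9593, 9186 and 9681, so that the TRa_mKO values lay inside the WT range.

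**Figure D2:**
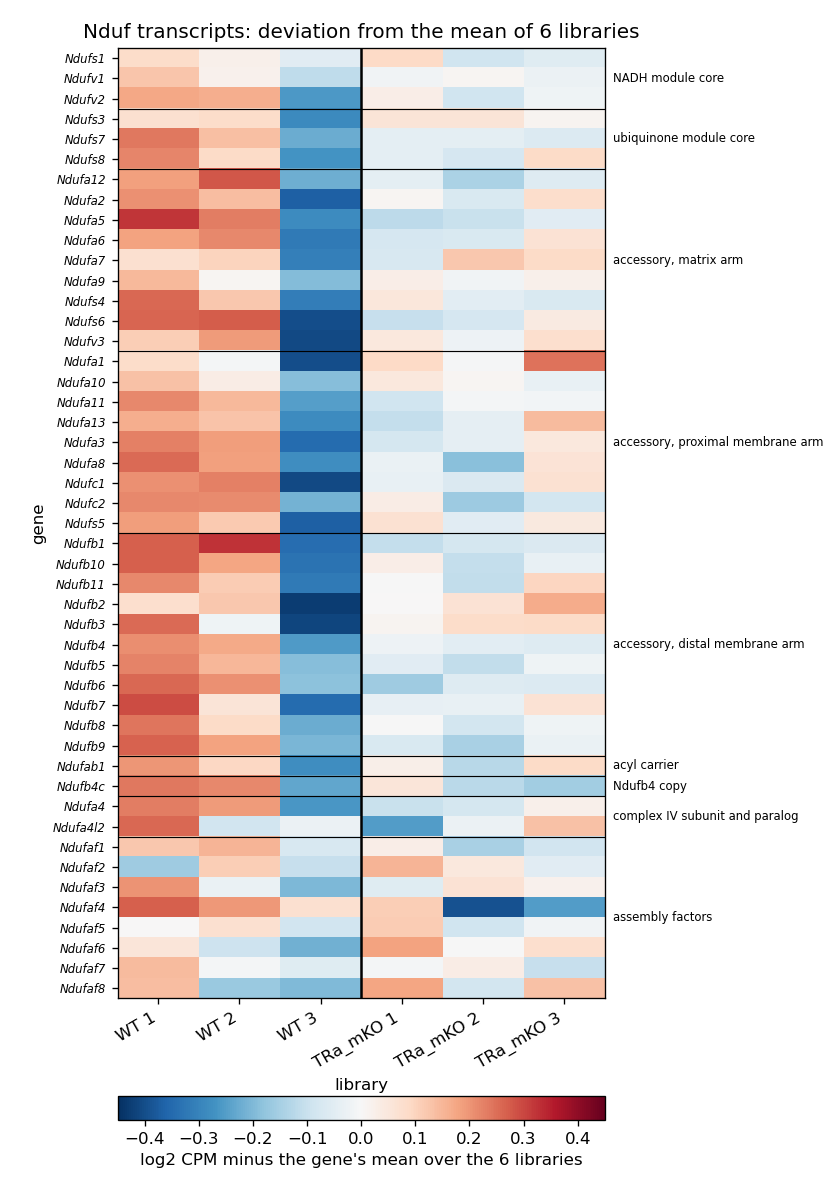
Deviation of each Nduf gene reported here (rows, grouped by role) in each library (columns) from the gene's mean over the 6 libraries, as log2 CPM, red above and blue below 0; the black vertical line parts WT from TRa_mKO. The WT replicate 3 column is blue for nearly all subunits and WT replicate 1 mostly red, while the TRa_mKO columns are mostly pale, with Ndufaf4, Ndufa4l2 and Ndufa1 among their darkest cells.

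The spread within a genotype was therefore unequal. The coefficient of variation over the 3 libraries had a median of 16.5% in WT and 4.76% in TRa_mKO, and it was larger in WT for 44 of the 48 genes. Over all genes tested the medians were 9.44% in WT and 10.0% in TRa_mKO, and 47.4% of genes had the larger value in WT. The exceptions among the 48 were Ndufs1, Ndufa4l2, Ndufaf4 and Ndufaf5. With 3 libraries in each genotype this difference in spread is a description and was not tested.

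The comparison of genotypes depended on which WT libraries entered it. Without WT replicate 3, the median log2 fold change of the 48 genes was -0.19 and 44 of them lay below 0. In that fit 19 of the 48 were lower in TRa_mKO at an unadjusted p under 0.05, against 7.28% of all genes. After adjustment 0 passed (0.93% of all genes), the smallest adjusted p being 0.0601 for Ndufb1. Without WT replicate 1 the median was 0.01, and without WT replicate 2 it was -0.01, and in both 0 genes had an unadjusted p under 0.05. The sign of the median thus changed with WT replicate 1.

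Once each gene was read against the median of the 48 in the same library, the spread over libraries was smaller. The SD over the 6 libraries had a median of 0.181 (log2 CPM) before and 0.0829 after, and it was smaller for 40 of the 48 genes. That median is made of these genes, which lowers the SD by construction. On this relative scale all TRa_mKO libraries lay above the WT ones for 5 of the 48 genes (Ndufa1, Ndufaf6, Ndufs3, Ndufs5 and Ndufb2), against 7.76% of all genes. They lay below them for 5 others (Ndufa5, Ndufa12, Ndufb5, Ndufb6 and Ndufb9), against 4.2% of all genes. The members set this scale, which also puts their spread over libraries into every other gene and so changes the shares of all genes. Without it 23.2% of all genes had WT and TRa_mKO apart in either direction, and 0 of the 48. The shares on the relative scale are thus no fair background, and none of these separations was tested. The widest gap was that of Ndufa1, which lay between -0.14 and -0.12 in WT and between 0.06 and 0.25 in TRa_mKO. Ndufaf4 lay between 0.06 and 0.33 in WT and between -0.33 and 0.11 in TRa_mKO, so that its genotypes overlapped.

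Other mitochondrial and ribosomal genes were also low in WT replicate 3, to differing degrees. In WT replicate 3 the 37 complex I subunits stood at -0.28. Complex III (9 genes) stood there at -0.26, complex IV (15 genes) at -0.31 and ATP synthase (17 genes) at -0.32. The 4 genes of complex II, at -0.07, and the 8 Ndufaf factors, at -0.09, were less displaced. The 78 mitochondrial ribosomal genes stood at -0.16 and the 81 cytosolic ribosomal genes at -0.22, so low values in this library were not limited to the respiratory chain. Whether the groups differ from one another was not tested. In WT replicate 1 complex I stood at 0.21, complex IV at 0.22 and the cytosolic ribosome at 0.07. Complex I was highest in that library, but not all groups were. The cytosolic and mitochondrial ribosomal genes were highest in WT replicate 2, at 0.13 and 0.09, and complex II in TRa_mKO replicate 1, at 0.11.

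**Figure D3:**
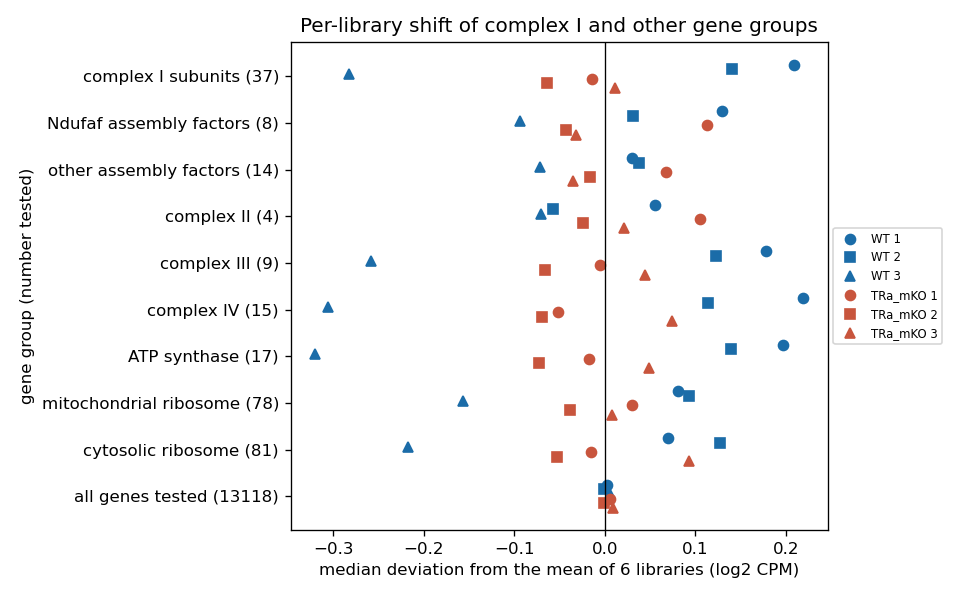
Median deviation from the mean of the 6 libraries (log2 CPM, horizontal axis) for each gene group (rows, number of genes tested in brackets); blue marks are WT and red marks TRa_mKO, with circles, squares and triangles for replicates 1, 2 and 3. WT replicate 3 is lowest in every group but all genes tested, though less displaced in complex II and the assembly factors. All libraries meet near 0 over all genes.

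Transcript length moved with the shift. The Nduf transcripts are short, with a median of 0.994 kilobases in the 46 members with a length, against 3.20 kilobases over all genes tested. With all genes split by length into 5 bins of like size, the bin of the shortest transcripts stood at -0.09 in WT replicate 3 and that of the longest at 0.04. In WT replicate 1 the same bins stood at 0.05 and -0.03. The 23 shorter members stood at -0.28 in WT replicate 3 and the 23 longer ones at -0.21. After a correction of each library for transcript GC content and length, the shift of the members was 0.15, 0.07 and -0.13 in WT replicates 1, 2 and 3. It kept its order over the WT libraries at a smaller size, and 0 members passed. RNA quality values per library were not used here, and their part was not tested.

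**Figure D4:**
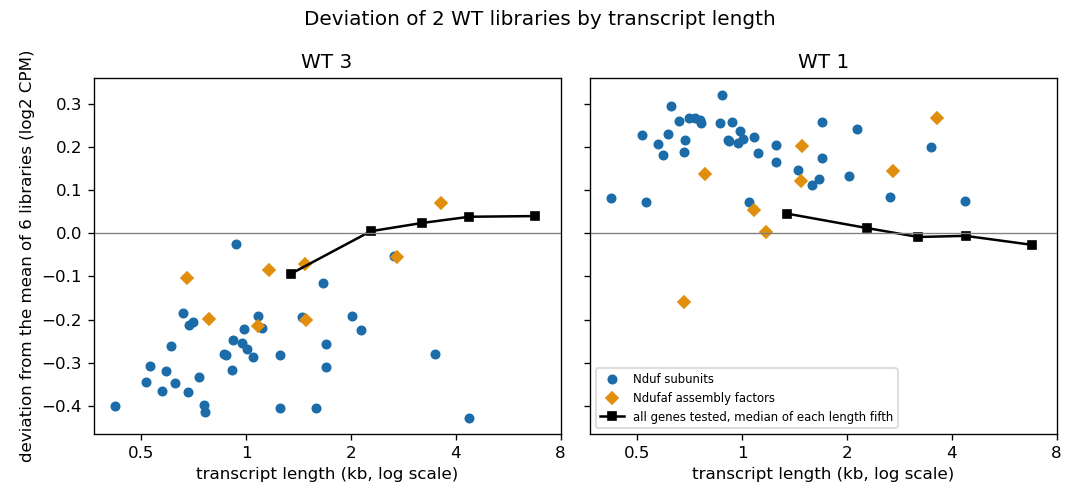
Deviation from the mean of the 6 libraries (log2 CPM) against transcript length (kilobases, log scale) in WT replicate 3 (left) and WT replicate 1 (right); blue circles are Nduf subunits, Ndufa4 and Ndufa4l2, orange diamonds the Ndufaf factors, and black squares the median of each of 5 length bins of all genes tested. The subunits mostly lie below -0.1 in WT replicate 3 and above 0 in WT replicate 1, while the bins stay between -0.09 and 0.05.

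Fibre type and blood markers also differed between libraries. The 11 slow-fibre genes summed to 3005, 1365 and 1395 CPM in WT. In TRa_mKO they summed to 5308, 5589 and 7680 CPM. The log2 fold changes of the 11 ran from 1.02 to 2.13. All 11 had an unadjusted p under 0.05 (edgeR), against 17.9% of all genes. At an adjusted p below 0.05, 5 of the 11 were called higher, against 2.52% of all genes. The slow-fibre sums of the genotypes were apart while those of the Nduf genes overlapped. The 4 haemoglobin genes and Alas2 summed highest in WT replicate 1, at 1763 CPM, and next in TRa_mKO replicate 3, at 1621 CPM. Their sum was 458 CPM in WT replicate 3 and between 589.6 and 917 CPM in the rest. With WT replicate 1 and TRa_mKO replicate 3 left out together, the median log2 fold change of the members was 0.02 and 0 passed. Schwann cell genes summed to 783 and 748 CPM in WT replicates 1 and 3 but 188 CPM in WT replicate 2, an order that the Nduf shift did not follow. Endothelial genes summed to 974 to 1195 CPM in WT and 720.2 to 999 CPM in TRa_mKO. Of these 7 genes, 6 had a log2 fold change below 0, with a median of -0.34. At an unadjusted p under 0.05 (edgeR) stood 4 of the 7, against 17.9% of all genes in either direction. At an adjusted p below 0.05, 0 were called lower, against 1.65% of all genes. Fibroblast genes summed to 1313 to 1866 CPM in WT and 1391 to 2008 CPM in TRa_mKO. The 4 satellite cell genes summed to 45.4 to 58.6 CPM in WT and 63.9 to 70.7 CPM in TRa_mKO. Of these, 1 was called higher, Pax7, against 2.52% of all genes, and 0 had a log2 fold change below 0, against 50%. Of the 11 fast-fibre genes 1 was called higher, Myh2, a gene of oxidative fast fibres, against 2.52% of all genes. A log2 fold change below 0 was found for 2 of the 11, against 50% of all genes. Pax7 and Myh2 are named after their values were seen. Adipocyte and macrophage genes each stayed under 100 CPM in sum, with 0 called, against 4.17% of all genes. No listed marker was at 0 in all libraries. The part of these cells in the shift was not tested.

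The promoters of the members were also read, and any link of their letters to the shift by library was not tested. The RefSeq promoter table (GRCm38.p6) held 41 of the 48 genes, and the 250 bases before the annotated start were searched on both strands. The core of the site of nuclear respiratory factor 1 (NRF1), a regulator of many respiratory genes, was written as GCGCA, any base, then GCGC. It was found in 7 of the 41 (17.1%), against 7.45% of 13363 genes with values. These were Ndufa5, Ndufa8, Ndufa11, Ndufaf4, Ndufb4, Ndufs5 and Ndufs6. CCGGAAG, the core of ETS factors, was in 5 of the 41 (12.2%, against 12.8%). AGGTCA, the hexamer that thyroid hormone and other nuclear receptors read, was also in 5 (12.2%, against 14.2%). The motifs were searched separately, and no matches to different motifs overlap in the stretches printed here. A match is a string of letters and does not show that a factor binds there.

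The stretches run 5′ to 3′ toward the start, with matches to the NRF1 core and AGGTCA (either strand) in capitals. Ndufaf4 is shown as the member with the smallest p, and Ndufb4 and Ndufs5 because they held both strings (107 genes, or 0.801% of those with values, did). The stretch of Ndufaf4 lies at chr4:24897833-24898082 on the plus strand, that of Ndufb4 at chr16:37654369-37654618 on the minus strand and that of Ndufs5 at chr4:123718187-123718436 on the minus strand.
Ndufaf4: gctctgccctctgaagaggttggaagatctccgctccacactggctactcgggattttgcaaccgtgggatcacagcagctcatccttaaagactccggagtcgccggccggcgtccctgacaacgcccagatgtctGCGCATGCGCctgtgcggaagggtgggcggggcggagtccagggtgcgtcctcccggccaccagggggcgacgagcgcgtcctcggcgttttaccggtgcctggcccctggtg
Ndufb4: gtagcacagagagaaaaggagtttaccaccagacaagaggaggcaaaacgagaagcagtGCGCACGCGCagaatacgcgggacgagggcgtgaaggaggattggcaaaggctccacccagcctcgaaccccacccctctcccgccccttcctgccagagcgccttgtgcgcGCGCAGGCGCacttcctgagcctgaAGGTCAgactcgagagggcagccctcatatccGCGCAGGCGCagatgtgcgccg
Ndufs5: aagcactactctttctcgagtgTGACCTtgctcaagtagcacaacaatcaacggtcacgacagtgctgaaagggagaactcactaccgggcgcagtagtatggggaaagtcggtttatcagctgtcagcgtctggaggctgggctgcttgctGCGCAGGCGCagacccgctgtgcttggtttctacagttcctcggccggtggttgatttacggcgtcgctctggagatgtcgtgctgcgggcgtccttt

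Ndufaf4 held 1 match to the NRF1 core, from 113 to 104 bases before the start. Ndufb4 held 3, the nearest from 22 to 13 bases before the start, and AGGTCA from 54 to 49 bases before it. Ndufs5 held the NRF1 core from 98 to 89 bases and the hexamer, on the opposite strand, from 228 to 223 bases before the start. Ndufs5 measured 161, 153 and 109 CPM in the 3 WT libraries against 148, 136 and 146 CPM in the TRa_mKO ones (log2 fold change 0.02, adjusted p = 0.96), and Ndufb4 206, 200.4 and 149 CPM in the 3 WT libraries against 175, 173 and 171 CPM in the TRa_mKO ones (log2 fold change -0.10, adjusted p = 0.748). Both had WT replicate 3 as their lowest library, as most members did, and neither differed between the genotypes beyond the spread of the libraries.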

How the data were processed

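Libraries of polyadenylated RNA came from the gastrocnemius of 3 WT and 3 TRa_mKO mice, all in batch 1 of the labels. The authors deposited estimated counts per gene without normalization, which the file headers call read counts. The submitters' processing notes list Trimmomatic 0.39, FastQC 0.11.9, MultiQC 1.12 and featureCounts, and 3 builds (mm10, GRCm39, GRCm38.p6) without roles; the aligner, annotation and strand setting were not given in the sources used here. Of 74693 features, 17034 had values, and 9.65% to 10.0% of a library's values were not whole. Counts were rounded, kept by filterByExpr (minimum count 10), normalized by TMM and tested two-sided for genotype with edgeR 4.0.16 (robust quasi-likelihood) in R 4.3.3. The threshold was an adjusted p of 0.05 over all 13118 genes. The fit was tested on simulated data. Log2 CPM used a prior count of 2. Lengths came from GENCODE transcripts, the longest protein-coding one where there was any, for 98.6% of genes tested.

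Alternatives used DESeq2 1.42.0, limma 3.58.1 (voom), other scalings and filters, a replicate block and fewer libraries. Others left out genes with fractional counts or used a loess fit on transcript length and GC content. Scaling to the members' median was added after seeing the data. Complexes and ribosomes were taken by symbol. Values in every library are given for the 4 members with the smallest p in each direction, the extremes of level per length, core subunits, Ndufa4, Ndufa4l2 and assembly factors, except 1 member, counted in the summaries but not reported here; other members shown were chosen after their values were seen. Members and lists were chosen with earlier results of these data known. Chi-square per degree of freedom between libraries of 1 genotype was at least 7.75, so none was a repeat of another. Python 3.11.15 was used for sequences and plots.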

Additional observations from a re-analysis of the deposited data

How the results depend on the processing

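The number of Nduf genes called higher was 0 under each alternative run. The number called lower was 0 too, except without TRa_mKO replicate 1, so that over the fits without 1 library it ranged from 0 to 1 (Ndufaf4). The median log2 fold change of the members ranged from -0.19 to 0.01 in those fits. Scaling to the members' median, added after seeing the data, raised the standard errors (for Ndufa1 from 0.13 to 0.20, with a log2 fold change of 0.27), so its 0 calls say little. The median of the members was -0.11 with library sizes alone, where the median of all genes moved to -0.05, and between -0.07 and 0.02 under the other alternatives. The log2 fold change of Ndufb2 ranged from -0.0189 (without WT replicate 3) to 0.2348 over the fits without 1 library. With library sizes alone the shift of the members in TRa_mKO replicate 1 was -0.0866, against -0.0022, and in WT it was 0.25, 0.08 and -0.17.

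Same-numbered libraries of the genotypes did not deviate together (correlations across genes of -0.18, 0.0003 and -0.0056). Differently numbered ones ranged from -0.17 to 0.20. Such correlations cannot decide whether the numbers pair the mice. With the replicate block 0 members passed and their median was -0.05. Calls over the whole table were 331 higher and 216 lower. They were 216 and 141 with the block, and 213 and 255 with library sizes alone. Without WT replicate 2 they were 179 and 182, without WT replicate 3 187 and 123, and without TRa_mKO replicate 2 135 and 74. With both haemoglobin-rich libraries left out they were 177 and 90. With 3 mice per genotype, differences inside the intervals given for each gene remain compatible with the data.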
